A study of Arabidopsis thaliana with 5 samples.

Results

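The core cell cycle genes of *Arabidopsis thaliana* were followed in RNA of endosperm nuclei collected at 4 days after pollination (DAP). The set holds 53 genes, chosen by their AGI identifiers from the 33602 identifiers of the expression table, and all 53 were found there. They comprise 1 A-type and 4 B-type cyclin-dependent kinases (CDKA and CDKB), 10 A-type, 9 B-type and 10 D-type cyclins (CYCA, CYCB and CYCD), and 7 KIP-RELATED PROTEIN (KRP) inhibitors. The remaining members are 3 E2F and 2 DP transcription factors, 3 DP-E2F-like (DEL) factors, 1 RETINOBLASTOMA-RELATED gene (RBR1), the kinase gene WEE1 and 2 CDK subunit (CKS) genes. They were listed by gene family and not by a measured level, although earlier results of these data were known when they were listed.

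Nuclei were purified by INTACT, in which a tag on the nuclear envelope is biotinylated and the labelled nuclei are captured on streptavidin. The tag and the biotin ligase were driven by the *PHE1* promoter (*PHE1::NTF* and *PHE1::BirA*, together the INT line in the Col accession). The nuclei to be captured were therefore those in which this promoter was active. The study also estimated contamination of the preparations from their maternal and paternal reads. Col × L*er* seeds, with the mother written first, came from male-sterile *dde2* mothers in Col that carried INT and were pollinated with L*er* wild type, and gave 2 libraries. L*er* × Col seeds came from male-sterile *pistillata* (*pi-1*) mothers in L*er* that were pollinated with the INT line, and gave 3 libraries. The endosperm of both crosses is thus F1 tissue at the same age. The direction of the cross, the mutation of the mother, and the parent that brought the tag change together and cannot be told apart.

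Division is driven by kinases that act only when bound to a cyclin. D-type cyclins with CDKA relieve the repression that RBR1 places on E2F factors, and E2F with DP then switches on genes for DNA replication. A-type and B-type cyclins with CDKA and CDKB drive S phase and the entry into mitosis, KRP proteins inhibit the kinase complexes, and DEL factors bind E2F sites without a DP partner and repress. In the early endosperm the nuclei divide as a syncytium, without cell walls between them, and cellularization follows.

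The Col × L*er* values of each gene are those of replicates 2 and 3, and its L*er* × Col values those of replicates 1, 2 and 3. Their unit is RPKM, the reads of a gene divided by its length in kilobases and by the depth of the library. RPKM is per length, so levels of different genes may be set side by side. The libraries differed widely from each other. Steps in the low values of tRNA genes put the depth at about 12546821 and 26607281 reads in Col × L*er* and 25565905, 20319890 and 28542782 reads in L*er* × Col, where 1 read on a gene of 1 kb is worth between 0.0350 and 0.0797 RPKM. The median RPKM of the genes tested lay between 2.32 and 12.2, lowest in replicate 2 and highest in replicate 1 of L*er* × Col. Pearson's r between libraries, on log2(RPKM + 1), lay between 0.635 and 0.95 over all genes tested and between 0.289 and 0.934 over the cell cycle genes tested. Both r values of the lower end joined replicate 2 of Col × L*er* with replicate 1 of L*er* × Col. Of a list of 10 endosperm markers, 7 and 10 reached 1 RPKM in Col × L*er* and 8, 7 and 9 in L*er* × Col. Their summed level was 658 and 390 RPKM in Col × L*er* and 556, 878 and 456 RPKM in L*er* × Col. A large part of each sum was 1 gene, RGE1 (AT1G49770). It had 532 and 190 RPKM in Col × L*er* and 386, 777 and 291 RPKM in L*er* × Col. The order of the libraries by this sum was that of RGE1, and without it the sum was lowest in replicate 2 of L*er* × Col. PHE1 lay between 29.7 and 51.0 RPKM and AGL62, a regulator of endosperm cellularization, between 13.8 and 30.4 RPKM, whereas AGL36 and AGL90 were listed at 0 in both replicate 2 libraries and IKU2 in replicate 2 of L*er* × Col. Seed coat markers were present as well, with a summed level over 12 genes of 82.9 and 300 RPKM in Col × L*er* and 244, 37.1 and 325 RPKM in L*er* × Col. In RNA of pooled nuclei, fewer dividing nuclei and less RNA per nucleus cannot be told apart.

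The cell cycle genes were broadly present. Of the 53, 42 had 1 RPKM or more in each library (79.2%), against 14247 of 26712 protein-coding genes (53.3%). In single libraries, 49 and 52 of them reached this level in Col × L*er* and 52, 43 and 52 in L*er* × Col. The median level of the set was 11.7 and 14.2 RPKM in Col × L*er* and 11.1, 3.85 and 11.4 RPKM in L*er* × Col, so replicate 2 of L*er* × Col stood below the other libraries. That library held the lowest value of 38 of the 53 genes, where it held the lowest of 58.9% of all genes tested. KRP7 was the only one of the 53 genes that was highest in it.

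**Figure D1:**
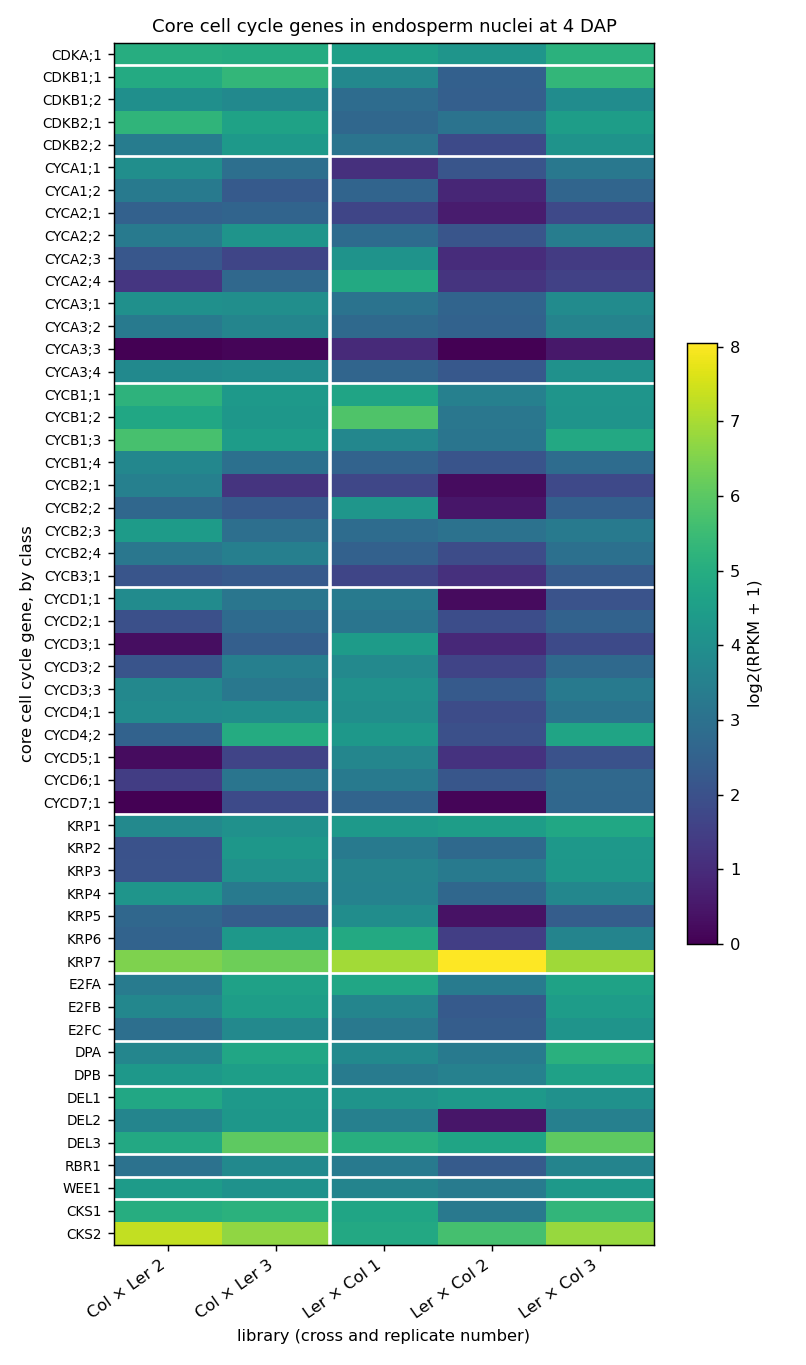
Level of each of the 53 cell cycle genes in each library, as log2(RPKM + 1) on a colour scale. Genes run down the page by class, with white lines between classes, and the Col × L*er* libraries stand left of the vertical white line. KRP7 and CKS2 carry the brightest values, up to 263 and 159 RPKM, and the column of replicate 2 of L*er* × Col is darker than the others for 38 genes.

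The B-type cyclins share a sequence feature that the choice of genes did not use. Many genes of mitosis carry the mitosis-specific activator (MSA) element, bound by MYB proteins of the MYB3R group, whose core is CNAACGG. This core was searched on both strands from 250 bases before to 50 bases after the annotated start of each gene. It was present in 7 of the 9 B-type cyclin genes (77.8%), in 10 of all 53 cell cycle genes (18.9%) and in 1474 of 26711 protein-coding genes (5.52%). The 3 further genes are the CYCA1 gene AT1G44110, DPA and RBR1. A window of 30 bases is shown for each of the 7 B-type cyclins, because this class is where the match recurs. The sequence reads 5′ to 3′ on the strand of the gene, with the matched core in capitals, and was taken from RefSeq TAIR10.1. Where a gene holds several matches, the one nearest the start on the gene's own strand is shown.
AT4G37490, a CYCB1 gene, chr4:17624351-17624380, minus strand: aaacaatcagaCCGTTGGggttcatttatt
AT5G06150, a CYCB1 gene, chr5:1861730-1861759, minus strand: aatttaatcatCTAACGGcaacagatgaaa
AT3G11520, a CYCB1 gene, chr3:3627296-3627325, minus strand: aagttcatcatCCAACGGctagaagtctaa
AT2G26760, a CYCB1 gene, chr2:11401132-11401161, plus strand: cctcttcgtccCCAACGGctagtaataaaa
AT2G17620, a CYCB2 gene, chr2:7663957-7663986, plus strand: tccctcatgatCCAACGGttatattctaaa
AT4G35620, a CYCB2 gene, chr4:16901459-16901488, plus strand: tccttcatgatCCAACGGtcatcttaatca
AT1G20610, a CYCB2 gene, chr1:7137878-7137907, minus strand: gtggcgttgatCCAACGGctgagatgaact
The core of AT4G37490 lies on the opposite strand and so reads CCGTTNG. All 4 CYCB1 genes hold a match, with the capitals starting at position -61 in AT4G37490, -45 in AT5G06150, -41 in AT3G11520 and 25 in AT2G26760, counted from the annotated start. The CYCB2 matches start at -87, -126 and -68 in the order shown. No match was found in this window of AT1G76310 and AT1G16330, which says only that these letters are not there.

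Matches to E2F words were fewer. The words TTTCCCGC, TTTCGCGC, TTTGCCGC and TTTGGCGC, searched on both strands of the same windows, were present in 3 of the 53 cell cycle genes (5.66%) and in 471 of 26711 protein-coding genes (1.76%). The 3 genes are shown because each belongs to a different class, and no E2F match overlapped an MSA match in them.
RBR1, AT3G12280, chr3:3919417-3919446, minus strand: caaatatgtaaTTTCCCGCgtgacctaaac
AT3G50070, a CYCD3 gene, chr3:18566920-18566949, minus strand: aattttctcgcGCGCCAAAcatccgaatat
AT1G77390, a CYCA1 gene, chr1:29084408-29084437, minus strand: tcagggaaaagTTTCGCGCtaaactataat
A match is a description of the letters and was not tested as a binding site.

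Among the kinases, the A-type gene spanned the smallest range over the libraries, 0.97 on the log2(RPKM + 1) scale, against 1.56 to 2.85 for the B-type genes. CDKA;1 (AT3G48750), the kinase used in both S phase and mitosis, had 31.5 and 29.6 RPKM in Col × L*er* and 22.4, 17.2 and 34.6 RPKM in L*er* × Col. The crosses overlapped, and the mean over the 5 libraries was 27.1 ± 7.12 RPKM (SD, n = 5). The plant-specific CDKB kinases act at the passage from G2 phase into mitosis. CDKB1;1 (AT3G54180) had 29.1 and 39.3 RPKM in Col × L*er* and 12.6, 4.58 and 39.0 RPKM in L*er* × Col. Its replicate 3 libraries were nearly equal in the crosses, and replicates 1 and 2 of L*er* × Col were the low ones. CDKB1;2 (AT2G38620), the CDKB gene with the lowest mean, had 15.0 and 13.1 RPKM in Col × L*er* and 6.21, 4.43 and 13.9 RPKM in L*er* × Col. The same 2 libraries were low.

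CDKB2;1 (AT1G76540, chr1:28720328-28722550, minus strand) had 37.1 and 23.7 RPKM in Col × L*er* and 5.41, 7.39 and 21.3 RPKM in L*er* × Col. The crosses did not overlap, although replicate 3 of L*er* × Col lay close below replicate 3 of Col × L*er*. The means were 30.4 ± 9.50 RPKM (SD, n = 2) in Col × L*er* and 11.4 ± 8.64 RPKM (SD, n = 3) in L*er* × Col, with a log2 fold change of 1.53 (standard error, SE, 0.89, limma adjusted p = 1.00). This SE, like each SE from limma given below, followed the trend over genes of like mean level and does not measure the gene's own spread. CDKB2;2 (AT1G20930) had 9.32 and 19.3 RPKM in Col × L*er* and 7.48, 2.51 and 16.5 RPKM in L*er* × Col, and here the crosses overlapped. Summed, the 4 CDKB genes reached 90.5 and 95.3 RPKM in Col × L*er* and 31.7, 18.9 and 90.7 RPKM in L*er* × Col. CDKB thus exceeded CDKA in every library, by 2.87-fold and 3.22-fold in Col × L*er* and by 1.42-fold, 1.102-fold and 2.62-fold in L*er* × Col, a mean log2 ratio of 1.05 ± 0.68 (SD, n = 5). As a mean per gene the order was the opposite, with a mean log2 ratio of -0.99, because 4 genes enter the CDKB sum and 1 the CDKA sum. The CDKB2 pair over the CDKB1 pair gave ratios of 1.05 and 0.821 in Col × L*er* and 0.684, 1.0998 and 0.714 in L*er* × Col, and so fell on both sides of 1.

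A-type cyclins act mainly in S phase and into mitosis, and they had the lowest level of all members among them. CYCA3;1 (AT5G43080), the A-type cyclin with the highest mean, had 15.5 and 14.7 RPKM in Col × L*er* and 7.33, 5.07 and 13.8 RPKM in L*er* × Col. The crosses did not overlap, by less than 1 RPKM between the replicate 3 libraries, and the log2 fold change was 0.83 (SE 0.98, limma adjusted p = 1.00). CYCA3;3 (AT1G47220) was the only member that was not tested, with 0 and 0.0764 RPKM in Col × L*er* and 0.954, 0 and 0.427 RPKM in L*er* × Col. It stands in tandem with 2 further CYCA3 genes on chromosome 1, AT1G47210 and AT1G47230, whose values lay between 4.76 and 11.6 RPKM and between 3.68 and 15.9 RPKM. The annotated spans of these CYCA3 genes do not overlap one another, and how any reads that match more than 1 of them were counted was not tested. The summed level of all 10 A-type cyclins was 79.4 and 80.7 RPKM in Col × L*er* and 78.8, 23.9 and 70.4 RPKM in L*er* × Col, so the crosses were separated by a small step, and only replicate 2 of L*er* × Col was far below the rest.

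The CYCA1 and CYCA2 genes differed in which library held their highest value. CYCA1;1 (AT1G44110) had 14.7 and 6.69 RPKM in Col × L*er* and 1.18, 3.35 and 8.25 RPKM in L*er* × Col. Its lowest value was that of replicate 1 of L*er* × Col. The other CYCA1 gene, AT1G77390, known from its part in meiosis as *TAM*, lay between 0.833 and 8.91 RPKM. CYCA2;4 (AT1G80370) had 1.41 and 5.63 RPKM in Col × L*er* and 28.7, 1.33 and 1.94 RPKM in L*er* × Col. CYCA2;3 (AT1G15570), a brake on endoreduplication, had 3.55 and 2.19 RPKM in Col × L*er* and 16.6, 1.04 and 1.65 RPKM in L*er* × Col. Both were high in replicate 1 of L*er* × Col alone. CYCA2;1 (AT5G25380) had 4.61 and 5.01 RPKM in Col × L*er* and 2.20, 0.524 and 2.45 RPKM in L*er* × Col, with crosses that did not overlap and a log2 fold change of 1.18 (SE 1.31, limma adjusted p = 1.00). The fourth CYCA2 gene, AT5G11300, lay between 3.33 and 16.8 RPKM, highest in replicate 3 of Col × L*er*.

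B-type cyclins, the partners of the mitotic kinases, had a higher summed level than the A-type cyclins in every library. CYCB1;2 (AT5G06150), the B-type cyclin with the highest mean, had 26.8 and 18.3 RPKM in Col × L*er* and 56.4, 8.14 and 16.9 RPKM in L*er* × Col. Its high value was that of replicate 1 of L*er* × Col, and the crosses overlapped. CYCB1;3 (AT3G11520) had 51.4 and 20.6 RPKM in Col × L*er* and 12.1, 7.75 and 28.1 RPKM in L*er* × Col, highest in replicate 2 of Col × L*er*. CYCB1;1 (AT4G37490), long used as a marker of cells in G2 phase and mitosis, had 35.8 and 19.3 RPKM in Col × L*er* and 24.9, 10.3 and 17.3 RPKM in L*er* × Col and was highest in replicate 2 of Col × L*er*. CYCB1;4 (AT2G26760) had 12.1 and 6.90 RPKM in Col × L*er* and 4.94, 3.21 and 6.21 RPKM in L*er* × Col. The crosses of this gene did not overlap, with means of 9.52 ± 3.71 RPKM (SD, n = 2) in Col × L*er* and 4.79 ± 1.504 RPKM (SD, n = 3) in L*er* × Col and a log2 fold change of 0.85 (SE 1.15, limma adjusted p = 1.00).

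The CYCB2 genes summed to less than the CYCB1 genes in every library. CYCB2;3 (AT1G20610) had 20.4 and 6.68 RPKM in Col × L*er* and 6.17, 7.20 and 8.81 RPKM in L*er* × Col, with replicate 2 of Col × L*er* apart from the other libraries. CYCB2;4 (AT1G76310), which carries no MSA core in the window searched, had 8.11 and 10.2 RPKM in Col × L*er* and 4.70, 2.67 and 6.84 RPKM in L*er* × Col. Its crosses did not overlap, and the log2 fold change was 0.88 (SE 1.15, limma adjusted p = 1.00). AT2G17620 lay between 0.214 and 10.3 RPKM, highest in replicate 2 of Col × L*er*, and AT4G35620 between 0.408 and 17.8 RPKM, highest in replicate 1 of L*er* × Col. The single CYCB3 gene, CYCB3;1 (AT1G16330), had the lowest mean of the class, with 3.32 and 3.80 RPKM in Col × L*er* and 2.21, 1.16 and 3.98 RPKM in L*er* × Col.

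The ratio between the CYCB1 and CYCB2 groups was nearly the same in all libraries. The 4 CYCB1 genes summed to 126 and 65.1 RPKM in Col × L*er* and 98.3, 29.4 and 68.5 RPKM in L*er* × Col. For the 4 CYCB2 genes, the sums were 44.2 and 22.0 RPKM in Col × L*er* and 31.0, 10.48 and 22.7 RPKM in L*er* × Col. CYCB1 over CYCB2 was 2.85 and 2.96 in Col × L*er* and 3.17, 2.80 and 3.03 in L*er* × Col, a mean log2 ratio of 1.57 ± 0.07 (SD, n = 5), although single genes of both groups peaked in different libraries. B-type over A-type cyclins gave 2.19 and 1.13 in Col × L*er* and 1.67, 1.72 and 1.35 in L*er* × Col, above 1 in 5 of 5 libraries.

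**Figure D2:**
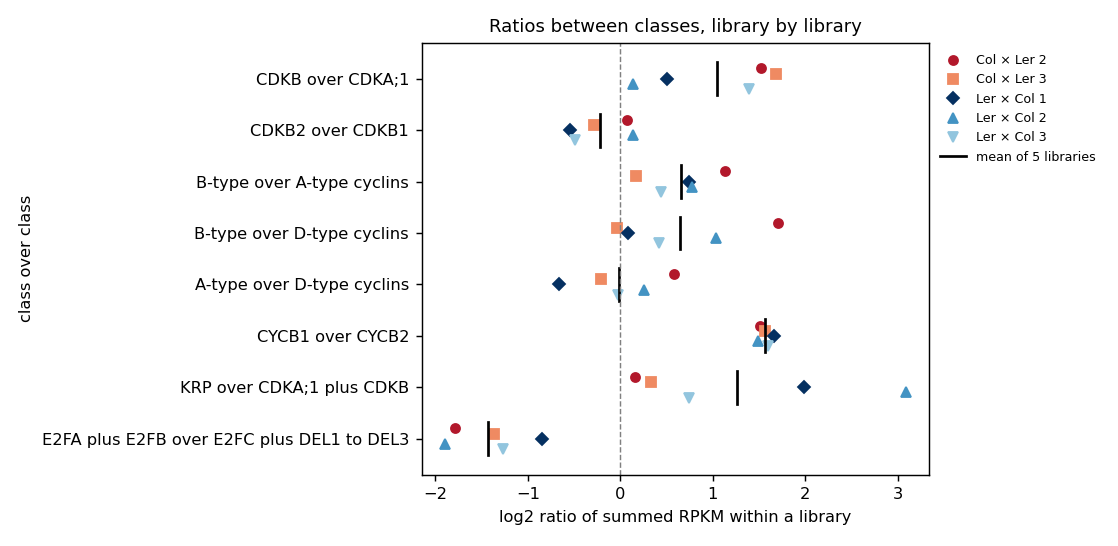
Log2 ratio of the summed RPKM of one class over another within each library. Points are the 5 libraries, black bars are their means, and the dashed line marks equal sums. The 5 points of CYCB1 over CYCB2 lie between 1.49 and 1.67, whereas those of KRP over CDK spread between 0.16 and 3.09.

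D-type cyclins respond to hormones and sugar and open the cycle through RBR1, and no single gene led this class in all libraries. CYCD4;2 (AT5G10440), with the highest mean, had 4.73 and 29.9 RPKM in Col × L*er* and 18.4, 2.88 and 25.0 RPKM in L*er* × Col. Both replicate 2 libraries were low and both replicate 3 libraries high. CYCD3;1 (AT4G34160), known for its response to cytokinin, had 0.242 and 4.38 RPKM in Col × L*er* and 20.2, 0.897 and 2.49 RPKM in L*er* × Col. CYCD5;1 (AT4G37630) had 0.199 and 2.11 RPKM in Col × L*er* and 11.9, 1.26 and 3.08 RPKM in L*er* × Col. Both genes had a single high library, replicate 1 of L*er* × Col, and their log2 fold changes were -1.01 (SE 1.303) and -1.35 (SE 1.31), each with a limma adjusted p of 1.00. Without that library the log2 fold change of AT4G34160 was 0.0072, on the other side of 0. CYCD1;1 (AT1G70210) had 13.9 and 7.98 RPKM in Col × L*er* and 8.69, 0.171 and 3.17 RPKM in L*er* × Col. Its log2 fold change of 1.67 was the highest of all members (SE 1.22, limma adjusted p = 1.00), and the crosses overlapped.

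CYCD7;1 (AT5G02110), known from the last division of the stomatal lineage, had the lowest mean of the class, with 0 and 2.53 RPKM in Col × L*er* and 5.003, 0.0817 and 5.44 RPKM in L*er* × Col. Both replicate 2 libraries were at or near 0. CYCD6;1 (AT4G03270), known from a formative division of the root, lay between 1.75 and 8.91 RPKM, and 847 of its 2018 annotated bases overlap AT4G03260 on the other strand. The strand setting of the counting is not given in the sources used here, so reads of such neighbours cannot be told apart. The other 4 D-type cyclins, AT2G22490, AT5G67260, AT3G50070 and AT5G65420, lay between 2.12 and 15.9 RPKM, and each was highest in replicate 1 of L*er* × Col. The D-type sum was 53.2 and 93.6 RPKM in Col × L*er* and 124, 20.01 and 71.4 RPKM in L*er* × Col. B-type over D-type cyclins was 3.26 and 0.972 in Col × L*er* and 1.06, 2.05 and 1.33 in L*er* × Col, and A-type over D-type cyclins 1.49 and 0.862 in Col × L*er* and 0.633, 1.20 and 0.986 in L*er* × Col. Both ratios were highest in replicate 2 of Col × L*er*, and the second had values on both sides of 1 in both crosses.

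Replicate 1 of L*er* × Col stood above the other 4 libraries in 14 of the 52 cell cycle genes tested (26.9%), where it did so in 46.9% of all genes tested. Of these 14 genes, 7 were D-type cyclins, of 10 in that class. The others were the CYCA2 genes AT1G80370 and AT1G15570, the B-type cyclins AT5G06150 and AT4G35620, KRP5, KRP6 and E2FA. The library stood below the other 4 in 5 of 52 genes (9.62%), against 4.49% of all genes tested, and these were AT1G76540 of CDKB2, AT1G44110 of CYCA1, AT1G20610 of CYCB2, DPB and CKS2. Markers of the embryo moved with this library. All 7 embryo markers tested, of a list of 8, were highest in it, and the summed level of the 8 was 2.23 and 20.7 RPKM in Col × L*er* and 112, 3.58 and 9.24 RPKM in L*er* × Col. The meristem genes STM and WUS and the root genes PLT2 and WOX5 were listed at 0 in replicate 2 of Col × L*er*. By the numbering of the libraries and the methods of the study, replicate 1 also came from a larger mass of siliques, and the study's methods left the first replicates of both crosses out of later steps after estimating contamination, while describing all replicates of this cross as merged. The part of these in the levels of the D-type cyclins was not tested.

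**Figure D3:**
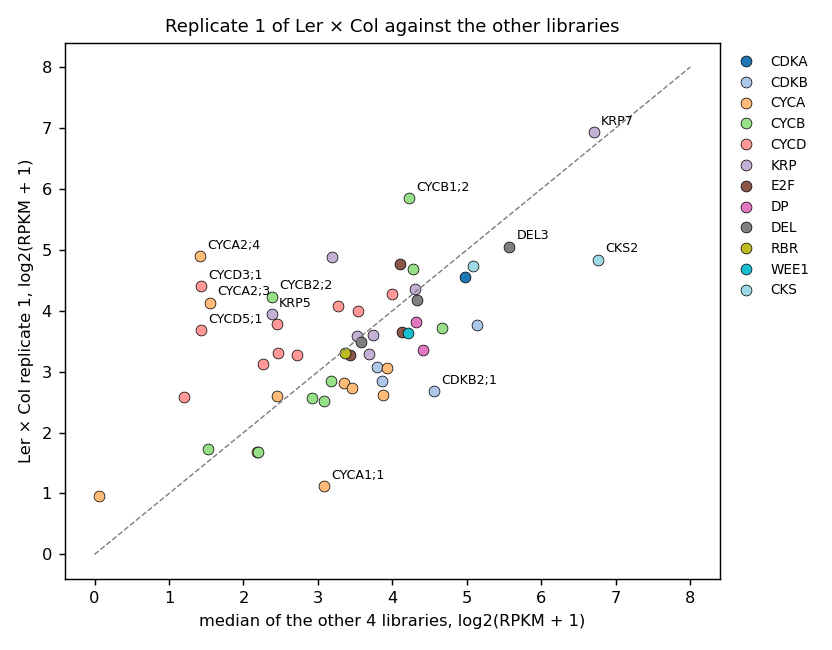
Level of each cell cycle gene in replicate 1 of L*er* × Col (vertical axis) against the median of the other 4 libraries (horizontal axis), both as log2(RPKM + 1). Points are genes coloured by class, and the dashed line marks equal levels. The D-type cyclins lie above the line, and CDKB2 and CKS2 points below it.

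KRP proteins bind and inhibit CDK and cyclin complexes, and 1 of the 7 genes was the highest in every library. KRP7 (AT1G49620, chr1:18365336-18366744, minus strand) had 89.3 and 75.9 RPKM in Col × L*er* and 122, 263 and 117 RPKM in L*er* × Col. It had the highest mean of all 53 genes, 133 ± 75.0 RPKM (SD, n = 5), and stood between the 94.2th and 99.0th percentile of protein-coding genes. All 3 L*er* × Col libraries lay above both Col × L*er* libraries, with means of 82.6 ± 9.46 RPKM (SD, n = 2) in Col × L*er* and 167 ± 83.0 RPKM (SD, n = 3) in L*er* × Col. The log2 fold change was -0.91 (SE 0.75, limma adjusted p = 1.00). Its share of the summed KRP level was lowest in replicate 3 of Col × L*er*, at 48.3%, and highest in replicate 2 of L*er* × Col, at 85.8%.

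KRP1 (AT2G23430) was the only other member whose Col × L*er* libraries lay below all L*er* × Col libraries. It had 12.9 and 15.8 RPKM in Col × L*er* and 19.4, 21.5 and 27.0 RPKM in L*er* × Col, with a log2 fold change of -0.61 (SE 0.85, limma adjusted p = 1.00). KRP5 (AT3G24810), with the lowest mean, had 5.37 and 4.17 RPKM in Col × L*er* and 14.5, 0.321 and 4.23 RPKM in L*er* × Col. KRP6 (AT3G19150), known for its removal by ubiquitin ligases in gamete formation, had 4.95 and 18.6 RPKM in Col × L*er* and 28.4, 1.80 and 11.4 RPKM in L*er* × Col. Both were highest in replicate 1 and lowest in replicate 2 of L*er* × Col. KRP2 (AT3G50630) and KRP3 (AT5G48820) were lowest in replicate 2 of Col × L*er*, at 3.09 and 3.19 RPKM, and highest in replicate 3 of L*er* × Col, at 18.7 and 18.3 RPKM. KRP4 (AT2G32710) lay between 5.41 and 17.3 RPKM, and 926 of its 3376 annotated bases overlap AT2G32720 on the other strand.

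The KRP sum was 136 and 157 RPKM in Col × L*er* and 215, 307 and 209 RPKM in L*er* × Col, and did not overlap between the crosses. KRP7 held 48.3 to 85.8% of this sum, and without KRP7 the sums of the crosses overlapped. Set against the kinases they inhibit, that is the sum of CDKA and CDKB, the ratio was 1.12 and 1.26 in Col × L*er* and 3.96, 8.50 and 1.67 in L*er* × Col. The mean log2 ratio was 1.26 ± 1.25 (SD, n = 5), above 0 in 5 of 5 libraries. This rested on KRP7. When KRP7 was left out of the sum, the ratio was 0.384 and 0.652 in Col × L*er* and 1.72, 1.20 and 0.732 in L*er* × Col, with a mean log2 ratio of -0.28, above 0 in 2 of 5 libraries.

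**Figure D4:**
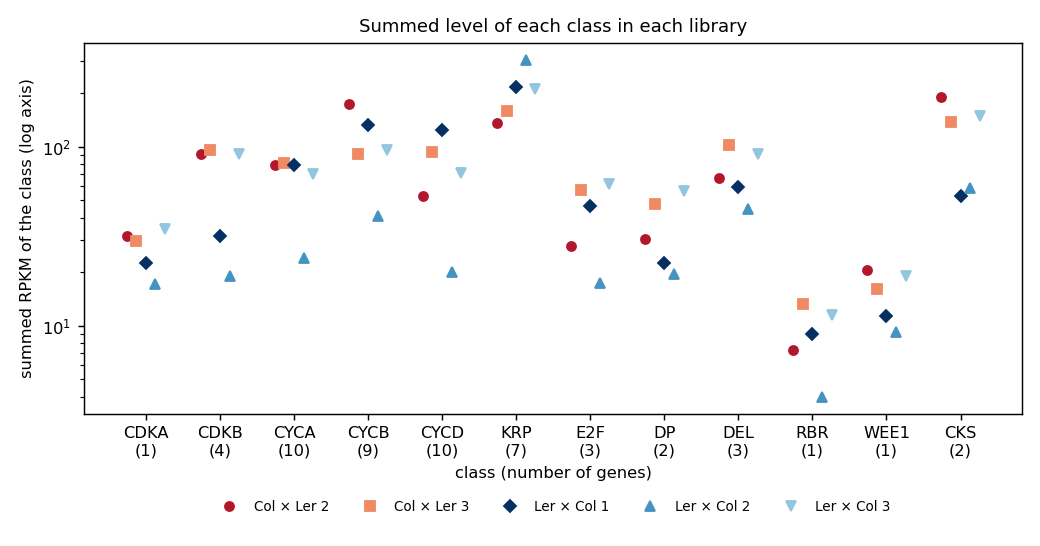
Summed RPKM of each class in each library, on a log axis. Numbers under the class names give the genes per class, and each point is a library. The KRP sums of Col × L*er*, 136 and 157, lie below those of L*er* × Col, between 209 and 307, while replicate 2 of L*er* × Col is lowest for the cyclins. KRP7 makes up 48.3 to 85.8% of the KRP sums, which overlap between the crosses without it.

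Transcription factors of the G1 to S passage had middle levels, with 1 DEL gene above the others. E2FA (AT2G36010), an activator, had 9.24 and 23.1 RPKM in Col × L*er* and 26.4, 9.22 and 23.8 RPKM in L*er* × Col. Both replicate 2 libraries were low. The activator E2FB (AT5G22220) lay between 3.85 and 21.5 RPKM. E2FC (AT1G47870), mainly a repressor and the lowest of the 3, had 6.63 and 12.9 RPKM in Col × L*er* and 8.63, 4.16 and 16.7 RPKM in L*er* × Col. The dimerization partner DPA (AT5G02470) had 11.8 and 26.1 RPKM in Col × L*er* and 13.03, 8.91 and 33.1 RPKM in L*er* × Col. DPB (AT5G03415) had 18.6 and 21.8 RPKM in Col × L*er* and 9.23, 10.51 and 23.4 RPKM in L*er* × Col. The replicate 3 libraries were the high ones of both DP genes in each cross.

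DEL3 (AT3G01330, chr3:124319-126876, minus strand) was the highest DEL gene in every library, with 28.2 and 64.7 RPKM in Col × L*er* and 32.2, 24.8 and 65.6 RPKM in L*er* × Col. Both replicate 3 libraries were the high ones, and the other 3 libraries lay between 24.8 and 32.2 RPKM. DEL1 (AT3G48160), a repressor of the onset of endoreduplication, had 27.3 and 18.8 RPKM in Col × L*er* and 17.1, 19.3 and 15.7 RPKM in L*er* × Col. It spanned 0.76 on the log2(RPKM + 1) scale, the smallest range of all 53 genes, for which the median range was 2.04. The DEL gene with the lowest mean, DEL2 (AT5G14960), had 11.7 and 18.2 RPKM in Col × L*er* and 10.2, 0.396 and 10.3 RPKM in L*er* × Col. Its crosses did not overlap, and the log2 fold change was 1.47 (SE 1.09, limma adjusted p = 1.00).

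The activators E2FA and E2FB together stayed below E2FC and the DEL genes in every library, as a sum of 2 genes against a sum of 4. As a mean per gene the 2 groups were nearly level, with a mean log2 ratio of -0.087. The ratio of the sums was 0.289 and 0.389 in Col × L*er* and 0.556, 0.268 and 0.414 in L*er* × Col, a mean log2 ratio of -1.43 ± 0.42 (SD, n = 5). Without DEL3, the ratio was 0.467 and 0.893 in Col × L*er* and 1.05, 0.547 and 1.05 in L*er* × Col, so that 2 of 5 libraries lay above 1. RBR1 (AT3G12280), which holds E2F factors in check, had 7.27 and 13.2 RPKM in Col × L*er* and 8.95, 3.99 and 11.4 RPKM in L*er* × Col, and the crosses overlapped. WEE1 (AT1G02970), an inhibitory kinase of the response to DNA damage, had 20.53 and 16.0 RPKM in Col × L*er* and 11.4, 9.25 and 18.9 RPKM in L*er* × Col, again with an overlap.

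CKS proteins dock substrates to the kinase. CKS2 (AT2G27970, chr2:11912151-11913425, minus strand) had 159 and 104 RPKM in Col × L*er* and 27.6, 50.3 and 110 RPKM in L*er* × Col. Its mean was next to that of KRP7 among the 53 genes, 90.3 ± 52.0 RPKM (SD, n = 5), and replicates 1 and 2 of L*er* × Col were low. CKS1 (AT2G27960), its neighbour on chromosome 2, had 31.6 and 34.1 RPKM in Col × L*er* and 25.5, 8.48 and 38.6 RPKM in L*er* × Col. CKS2 was the higher of the pair in every library, with 52.0 to 85.6% of their sum. The annotated spans of these 2 neighbours do not overlap, and how any reads that match both were counted was not tested. The annotation of CKS2 overlaps AT2G27980 by 67 bases on the same strand. In all, 15 of the 53 genes overlap another annotated gene, 13 of them with a gene on the other strand.

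The crosses were compared over the whole table with limma on log2(RPKM + 1), on which changes of low genes appear smaller than they are. The standard errors and p-values followed the variance trend over genes of like mean level. They therefore do not measure the spread of a single gene. Of the 52 cell cycle genes tested, 0 had an adjusted p under 0.05 and 0 had an unadjusted p under 0.05. Over all 25579 genes tested, 2 (0.00782%) were called at an adjusted p under 0.05 and 266 (1.04%) had an unadjusted p under 0.05. Without replicate 3 of L*er* × Col, 5 cell cycle genes had an unadjusted p under 0.05 and 0 an adjusted p under 0.05. Over all genes, 86 were then called at an adjusted p under 0.05. The share of all genes at the unadjusted p was not computed there, so the 5 are not a result about the cell cycle genes. The median standard error over the cell cycle genes was 1.02 on the log2 scale. Differences of this size or smaller were not detectable with these libraries, and well larger ones could be missed as well, so it is not a detection limit. The highest log2 fold change of these genes, 1.67, was not called either. With Col × L*er* as the numerator, the log2 fold changes ranged between -1.35 and 1.67 with a median of 0.45, and 40 of 52 were above 0 (76.9%). Over all genes tested the median was 0.10 and 54.8% were above 0.

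By class, the fold changes over all 5 libraries were above 0 for all 4 CDKB genes, with a median of 1.06, and for all 9 B-type cyclins, with a median of 0.64. Of these cyclins, AT5G06150 and AT4G35620 lay near 0, at 0.13 and 0.069. Of the A-type cyclins 7 of 9 tested were above 0 (median 0.83), of the D-type cyclins 5 of 10 (median -0.04) and of the KRP genes 3 of 7 (median -0.31). The CKS pair had a median of 0.95, the DEL genes of 0.37, the E2F genes of 0.10 and the DP pair of 0.36. With quantile normalization 31 of 52 genes were above 0, with a median of 0.22. When replicate 2 of L*er* × Col was left out, 29 of 52 were above 0, with a median of 0.11 against -0.34 over all genes then tested. The counts by class were not computed without this library, which held the lowest value of 58.9% of all genes tested. Both Col × L*er* libraries lay above all L*er* × Col libraries in 6 of 52 genes (11.5%), against 6.17% of all genes tested. They lay below in 2 of 52 genes (3.85%), KRP1 and KRP7, against 1.92% of all genes tested. Without replicate 1 of L*er* × Col the count above was 11 of 52 (21.2%), against 15.1% of all genes, and the count below was 2 (3.85%, against 2.27%). Without replicate 2 of L*er* × Col the counts were 7 of 52 above (13.5%, against 6.56%) and 5 below (9.62%, against 14.7%).

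**Figure D5:**
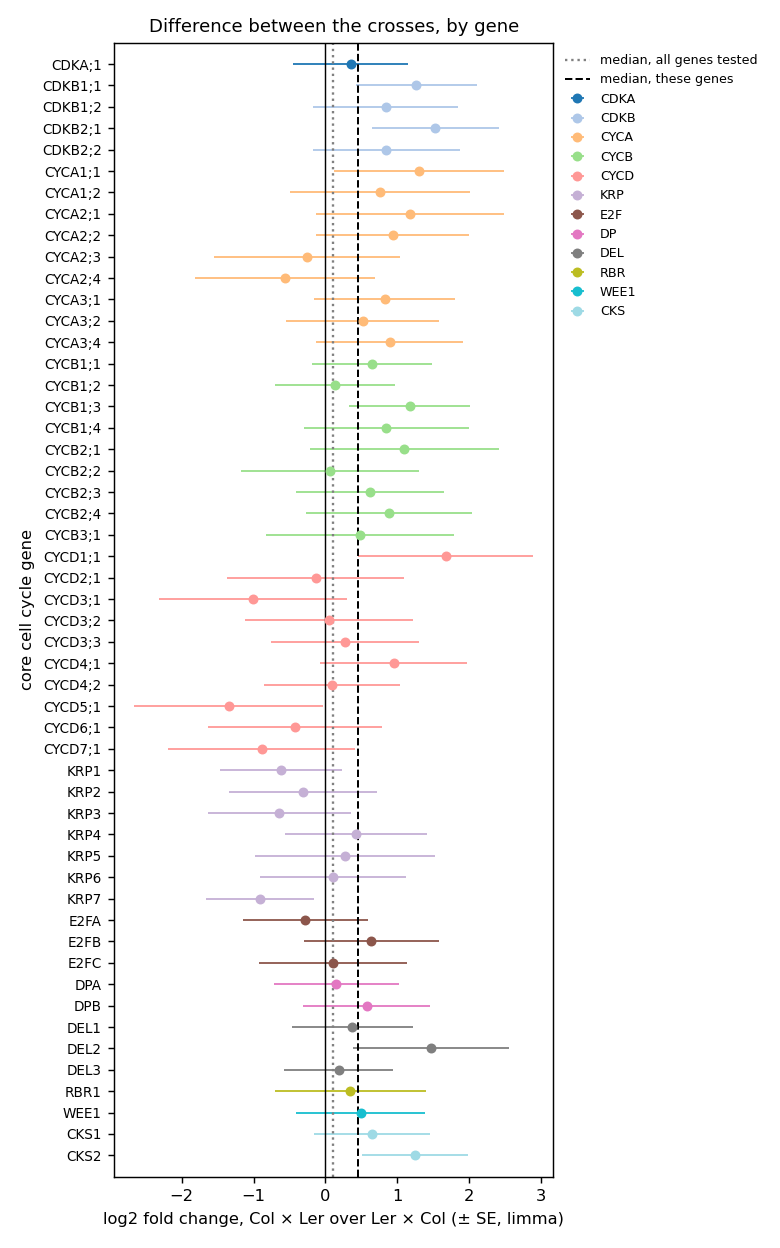
Log2 fold change of each cell cycle gene tested, Col × L*er* over L*er* × Col, with limma's standard error as horizontal bars and colours by class. The solid line marks no difference, the dotted line the median of all genes tested at 0.10 and the dashed line the median of the cell cycle genes at 0.45. The bars follow the trend over genes of like mean level and not the spread of each gene. Most error bars cross 0, and the KRP and D-type genes lie on both sides of it.

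Further genes that control the cycle were read from a list of 22 that act on the core machinery, among them activators of the anaphase-promoting complex, MYB3R factors, CDK-activating kinases, SIAMESE-type inhibitors and Aurora kinases. All 22 were tested, none was called, and 2 had an unadjusted limma p under 0.05, against 1.04% of all genes tested. The list was chosen with earlier results of these data known, so these 2 are not a test of it. The median log2 fold change of the 22 was 0.48, and the values lay between -1.30 and 2.14. The 2 with that p were also the highest of the list, a neighbouring pair of activators of the anaphase-promoting complex that trigger the exit from mitosis. CDC20.1 (AT4G33270) had 751 and 562 RPKM in Col × L*er* and 99.9, 110 and 376 RPKM in L*er* × Col, with a log2 fold change of 2.01 (SE 0.83, limma adjusted p = 1.00). CDC20.2 (AT4G33260) had 226 and 200 RPKM in Col × L*er* and 40.6, 19.2 and 134 RPKM in L*er* × Col, with a log2 fold change of 2.14 (SE 0.74, limma adjusted p = 1.00). The crosses did not overlap in either gene, nor in AUR2 (AT2G25880) of the same list. Both Col × L*er* libraries lay above all L*er* × Col libraries in 6.17% of all genes tested. Replicates 1 and 2 of L*er* × Col were the low libraries of the CDC20 pair, as they were for CKS2 and for the CDKB sum. At the other end of the list, AT1G08180 had 0 and 3.55 RPKM in Col × L*er* and 9.32, 1.43 and 2.80 RPKM in L*er* × Col.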

How the data were processed

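RNA of INTACT-purified endosperm nuclei was sequenced in 2 Col × L*er* and 3 L*er* × Col libraries. RPKM values, the reads of a gene per kilobase of length and per unit of depth, were deposited by the authors in 1 table with a column per library and both parental alleles together. The submitters' processing notes name TopHat2 2.1 and TAIR10. The strand setting of the counting is not given in the sources used here. No read counts were used, and depth was estimated from tRNA genes below 20 reads, of which 96.8 to 98.5% lay within 0.1 of a whole read (40 to 332 genes per library).

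Replicates are numbered as in the column names and the descriptions, while titles call the Col × L*er* libraries 1 and 2. Replicates are biological per the series' design text. The study's methods left the first replicates out of later steps because of estimated contamination but also describe 3 L*er* × Col replicates as merged. All 5 libraries were therefore used, with each left out in turn among the alternatives.

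Crosses were compared by a model with the cross as its only term and a trend on the variance, fitted in limma (version 3.58.1, R version 4.3.3) to log2(RPKM + 1) of genes that reached 1 RPKM in 2 or more libraries. Benjamini-Hochberg adjusted p-values under 0.05 over all genes tested were called. Class sums and ratios within a library are descriptions without a test. Fold changes are given in the text for members whose crosses did not overlap and for the 3 with the highest and the 3 with the lowest fold change, and every library's value at least for the highest and lowest mean of each class. Of the 22 further regulators and 12 replication genes, the 2 highest and the lowest are named. Members and lists were chosen with earlier results of these data known.

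Gene symbols, positions and sequences come from RefSeq TAIR10.1, which matched 32835 of 33602 identifiers. The RPKM table holds no coordinates. Alternatives were pseudocounts of 0.1 and 0.5, other filters, a replicate block, quantile normalization, a constant prior variance, other ways to form class ratios and leaving out each library. Python 3.11.15 with pandas 2.3.3, NumPy 2.4.6 and matplotlib 3.10.9 was used.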

Additional observations from a re-analysis of the deposited data

How the results depend on the processing

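Of the cell cycle genes tested, 0 were called by limma under each alternative run. An unadjusted limma p under 0.05 was reached by 5 of them without replicate 3 of L*er* × Col and by 3 with a replicate block by the descriptions. It was reached by 1 with a block by the titles, by 1 with quantile normalization and by 0 in the other alternatives that kept 2 or more libraries per cross. The shares of all genes at this p were not computed for these settings, so the counts are not a result about the cell cycle genes. The median log2 fold change of the cell cycle genes stayed above 0, at 0.22 with quantile normalization and 0.56 with a pseudocount of 0.1. It lay between 0.11 and 0.71 when each library was left out in turn. The difference between replicates 3 and 2 was weakly correlated between the crosses, with r = 0.29 over all genes tested and 0.23 over the cell cycle genes. Only 2 numbers are shared, so this does not establish a pairing. With a replicate block by the numbers of the descriptions the members' median was 0.71, their lowest adjusted p from limma was 0.17, and 86 genes in all were called, 77 higher and 9 lower in Col × L*er*. With the block by the numbers of the titles the median was 0.67. In the block by the descriptions replicate 1 of L*er* × Col stands alone, so each fold change there equals the one without that library. In the block by the titles the same holds for replicate 3 of L*er* × Col. The count of all genes called, 2 as reported, was 7 with a pseudocount of 0.1, 6 with 0.5, 6 without a filter beyond a value above 0, 6 over genes that reached 1 RPKM in each library, 0 with quantile normalization, 0 without the variance trend, and between 0 and 86 when each library was left out. It was 86 without replicate 3, 21 without replicate 2 and 0 without replicate 1 of L*er* × Col, and 8 without replicate 3 and 0 without replicate 2 of Col × L*er*. The cause was not tested. AT4G34160 of CYCD3 reversed its sign, with a log2 fold change of 0.0072 without replicate 1 of L*er* × Col and of 0.0499 without replicate 2 of Col × L*er*. The block by the numbers of the descriptions gave the same 0.0072 by construction. It lay between -2.07 and 0.0499 over the libraries left out. The other cell cycle genes with a named fold change kept their sign in the alternatives that tested them, and 4 of these were not tested over genes that reached 1 RPKM in each library. The CDC20 pair was not refitted. The 42 genes at 1 RPKM in each library were 44 at a minimum of 0.5 and 36 at a minimum of 2, and between 42 and 49 when each library was left out. As differences of mean log2(RPKM + 1) per gene, CDKB over CDKA was -0.99, KRP over CDK -0.089, the E2F ratio -0.087 and CYCB1 over CYCB2 1.45, since a mean gives each gene the same weight. CYCB1 over CYCB2 was 2.19 over members at 1 RPKM in every library and 1.65 with quantile normalization. Chosen after the data were seen, leaving out KRP7 gave -0.28 for KRP over CDK, leaving out DEL3 gave -0.40 for the E2F ratio, and leaving out each library in turn gave between 7 and 21 members with Col × L*er* above L*er* × Col, and between 2 and 8 below, where the share of all genes tested was 6.56 to 24.1% above and 2.27 to 20% below. The count above was 13 (25%, against 23.9% of all genes) without replicate 2 and 18 (34.6%, against 14.2%) without replicate 3 of Col × L*er*, and 21 (40.4%, against 24.1%) without replicate 3 of L*er* × Col. The count below was 8 (15.4%, against 20%) without replicate 3 of Col × L*er*.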

Other observations

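Genes of DNA replication were read from a list of 12 that holds the MCM helicase subunits, PCNA and factors that license origins. All 12 were tested, 0 were called by limma and 0 had an unadjusted p under 0.05. With Col × L*er* as the numerator, the log2 fold changes ranged between -0.98 and 0.91 with a median of 0.02, near the median of 0.10 over all genes tested. The summed level was 134 and 205 RPKM in Col × L*er* and 181, 69.2 and 222 RPKM in L*er* × Col, lowest in replicate 2 of L*er* × Col. MCM5 (AT2G07690) had 25.9 and 45.8 RPKM in Col × L*er* and 25.1, 14.1 and 55.9 RPKM in L*er* × Col. MCM4 (AT2G16440) had 25.6 and 28.6 RPKM in Col × L*er* and 32.2, 15.4 and 39.8 RPKM in L*er* × Col. Both replicate 3 libraries held the highest value of their cross in each of these helicase genes. ORC1A (AT4G14700), a subunit of the origin recognition complex and the lowest of the list, had 0.221 and 3.76 RPKM in Col × L*er* and 4.99, 0.642 and 3.09 RPKM in L*er* × Col.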
